A study of Mus musculus with 17 samples.

Results

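Osteoclasts release or display molecules that act on the cells that build bone. The transcripts of 8 such coupling factors, Sphk1, Sema4d, Efnb2, Cthrc1, Lif, Slit3, Pdgfb and Wnt10b, were followed here through 17 RNA-seq libraries of cultured mouse bone marrow macrophages (BMMs) and the osteoclast precursors (preOCs) made from them. The genes were chosen by symbol for this role, and each symbol matched 1 of the 41388 gene identifiers counted. Bap1flox cells came from mice with loxP sites on both copies of Bap1 and no Cre, and Bap1LysM cells from littermates that carried the same sites together with a Cre recombinase placed in the lysozyme M gene, which is active in myeloid cells. BAP1 is a nuclear deubiquitinase. BMMs were grown from marrow in M-CSF, and preOCs received RANKL at 100 ng/ml for 24 h in addition. The labels call the RANKL-treated cells osteoclasts. The preOCs were from male mice of 20 weeks, and the source mice of the BMMs are not described in the sources used here. There were 6 Bap1flox and 5 Bap1LysM preOC libraries and 3 BMM libraries of each genotype. The titles are alike throughout, but the deposited count tables of libraries 4 to 6 bear names of another form than those of libraries 1 to 3, and these were treated as 2 library sets, of which only the first holds BMMs.

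Bone is remodelled at sites where resorption by osteoclasts is followed by formation by osteoblasts. Secreted coupling signals include sphingosine-1-phosphate, which sphingosine kinase 1 (Sphk1) makes and which recruits osteoblast precursors, the collagen triple helix repeat protein CTHRC1, the cytokine LIF, the guidance protein SLIT3, the growth factor PDGF-BB (Pdgfb), which acts on perivascular and skeletal progenitors, and WNT10B, which favours osteoblast differentiation. Others sit in the osteoclast membrane. Semaphorin 4D (Sema4d) signals through plexin B1 on osteoblasts and restrains them, and ephrin B2 (Efnb2) engages EphB4 in both directions.

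The libraries held 37967542 to 61369441 counted reads, so that 3 reads, the limit that a count of 0 allows, corresponded to 0.0489 to 0.079 CPM (counts scaled to a common library total). Mitochondrially encoded genes took a larger share of the reads in libraries 4 to 6 than in libraries 1 to 3 in every case. The osteoclast marker list separated the treatments, with a summed level of 231 to 352 CPM in BMMs and 5917 to 17563 CPM in preOCs, and all 6 macrophage markers averaged above 1 CPM in every group. The knockout label was weakly reflected in whole-gene reads of Bap1, which were at 64.3% to 101% of the Bap1flox mean in Bap1LysM preOCs. Lyz2, the gene that carries Cre, was below 0.5% of the Bap1flox mean in all Bap1LysM libraries except those numbered 1, where it was at 75.1% in preOCs and 42.8% in BMMs. These libraries differ in Lyz2 from the others with the same label. Their Bap1 reads, at 88.6% of the Bap1flox mean in preOCs and 92.3% in BMMs, lay within the range of those others. The study describes the mice as heterozygous for the Cre allele, so Lyz2 does not settle which libraries match the label. The called differences between genotypes, and the Bap1LysM responses of called members, are also given without the libraries numbered 1.

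The genes divided sharply by abundance. Compared per length of exon (RPKM), Sema4d was the highest of the 8 in every group, at 39 ± 6.24 RPKM (SD, n = 3) in Bap1flox BMMs and 122 ± 7.21 RPKM (SD, n = 6) in Bap1flox preOCs. Pdgfb followed at 11.2 ± 4.72 and 72.7 ± 18.9 RPKM in the same groups. The ranges of Sema4d and Pdgfb did not overlap in any of the 4 groups, and the other 6 genes stayed below Pdgfb without overlap. Those 6 had group means between 0.131 and 3.15 RPKM, and each overlapped its neighbour in the order within every group, so that neighbours in the order were not resolved by these libraries. Genes further apart could be: in Bap1flox preOCs, Slit3 (at most 0.55 RPKM) and Wnt10b (at most 0.416 RPKM) lay below every library of Lif, Efnb2 and Sphk1, whose lowest values were 0.899, 0.86 and 0.694 RPKM. In Bap1LysM preOCs the order below Pdgfb was Efnb2, Sphk1, Lif, Cthrc1, Slit3 and Wnt10b.

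Several members were close to the limit of measurement. Wnt10b was counted 3 to 56 times per library, never exceeded 1.22 CPM, and did not reach 1 CPM in any preOC library. It was therefore not tested between preOC genotypes by the criterion used for all genes, a CPM above 1 in at least 4 of 11 libraries. Cthrc1 and Slit3 were tested, but in libraries 4 to 6 their Bap1flox preOC levels were only 0.595 to 0.991 CPM and 0.297 to 0.396 CPM, and neither passed the filter within that set. Sphk1, Efnb2 and Lif, at 30 to 1071 reads per library, were measurable throughout. Sema4d and Pdgfb had at least 988 reads in every library.

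**Figure D1:**
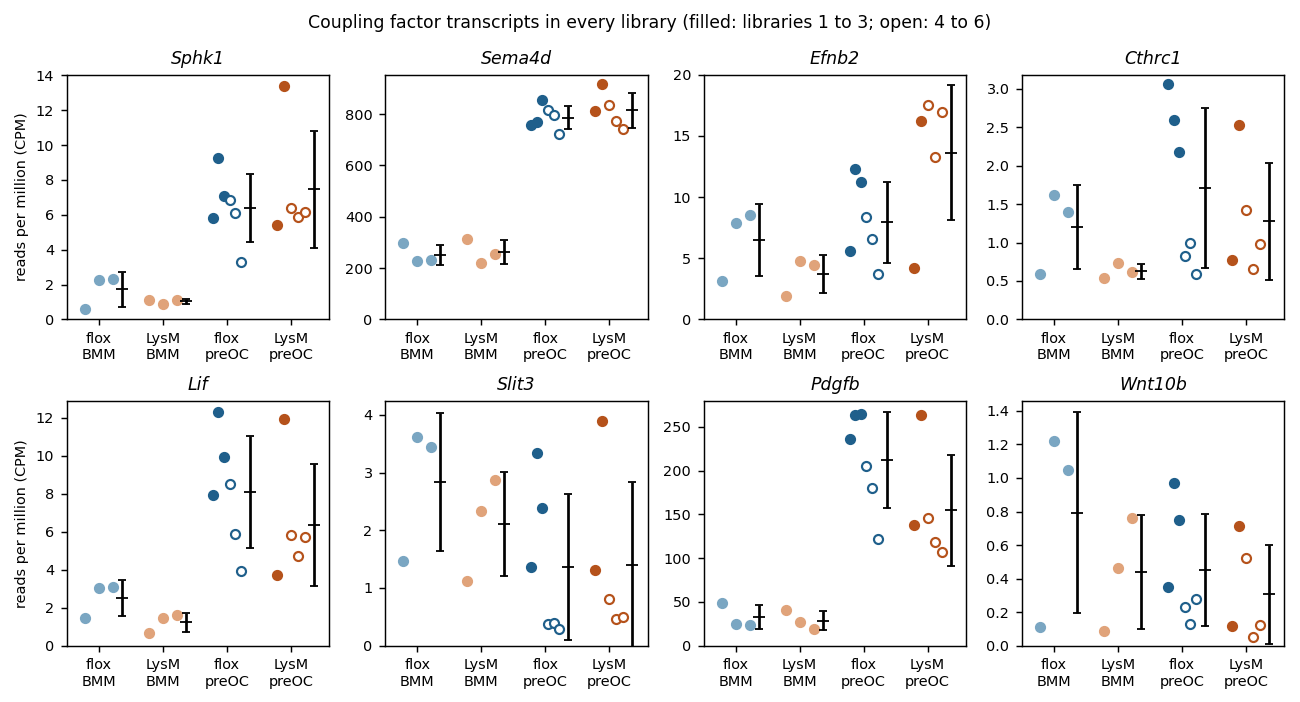
Level (CPM) of each coupling factor in every library, by group; filled points are libraries 1 to 3, open points libraries 4 to 6, and bars are the mean ± SD. Sema4d, Pdgfb, Sphk1 and Lif are higher in preOCs than in BMMs of the same library set, and Wnt10b does not exceed 1.22 CPM anywhere.

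The first question was which factors respond to RANKL, asked in libraries 1 to 3, where both stages exist. In Bap1flox cells 4 of the 8 genes, Pdgfb, Sphk1, Lif and Sema4d, were higher in preOCs and none was lower by the quasi-likelihood test of edgeR, with p adjusted after Benjamini and Hochberg across every gene tested. The background was large, since 58.1% of the 13635 genes tested were called, 29.4% as higher. In Bap1LysM cells the same 4 genes were higher, with 38.9% of all genes called and 21.2% called as higher. Each of the 4 was called in both genotypes under all 23 alternatives tried. Without the Bap1LysM libraries numbered 1, the Bap1LysM preOCs are library 2 alone, which is assumed to vary like the other groups. The Bap1LysM log2 fold changes were then 3.62 for Sphk1, 3.41 for Pdgfb, 2.83 for Lif and 1.82 for Sema4d (adjusted p of 0.00018 to 0.0024, edgeR), with 44% of all genes called. With preOC library 2 left out in its place they were 2.35, 2.23, 1.55 and 1.59 in the same order (adjusted p of 0.0017 to 0.043, edgeR), with 23.2% called. In such bulk samples fewer cells of a type cannot be told apart from less RNA per cell.

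Pdgfb (ENSMUSG00000000489, minus strand of chromosome 15, 79995900 to 80014808 of GRCm38) had the largest estimate in Bap1flox cells among the 8 genes, and in Bap1LysM cells the estimates of Sphk1, Pdgfb and Lif differed by about their standard errors or less. Its level was 48.5, 25.2 and 24 CPM in Bap1flox BMMs 1, 2 and 3 and 236, 264 and 265 CPM in the corresponding preOCs. In Bap1LysM cells it was 40.7, 26.5 and 18.9 CPM in BMMs and 138 and 264 CPM in preOCs 1 and 2. The stages did not overlap in either genotype, as was so for 71.8% of all genes tested in Bap1flox and 54.9% in Bap1LysM cells. BMM libraries numbered 1 were the highest of their group in both genotypes. The log2 fold change was 2.78 (standard error, SE, 0.37 with adjusted p = 0.00019, edgeR) in Bap1flox and 2.68 (SE 0.39, adjusted p = 0.00077, edgeR) in Bap1LysM cells.

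Sema4d (ENSMUSG00000021451, minus strand of chromosome 13, 51701246 to 51793747) had the smallest spread. It was at 298, 226 and 231 CPM in Bap1flox BMMs and at 758, 771 and 854 CPM in preOCs 1 to 3. The Bap1LysM levels were 315, 219 and 254 CPM in BMMs and 811 and 919 CPM in preOCs. All preOC libraries stood far above all BMM libraries, with log2 fold changes of 1.48 (SE 0.17, adjusted p = 8.8e-05, edgeR) in Bap1flox and 1.61 (SE 0.19, adjusted p = 0.00025, edgeR) in Bap1LysM cells. The levels of preOCs 4 to 6, which were not used in this comparison, were 723 to 817 CPM in Bap1flox and 741 to 834 CPM in Bap1LysM.

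Sphk1 (ENSMUSG00000061878, plus strand of chromosome 11, 116530925 to 116536674) was low in BMMs, at 0.572, 2.27 and 2.34 CPM in Bap1flox and 1.14, 0.883 and 1.09 CPM in Bap1LysM. It reached 5.82, 9.27 and 7.07 CPM in Bap1flox preOCs 1 to 3 and 5.44 and 13.4 CPM in Bap1LysM preOCs 1 and 2. The stages did not overlap in either genotype, as for 71.8% of all genes tested in Bap1flox and 54.9% in Bap1LysM cells. The log2 fold change was 1.92 (SE 0.48, adjusted p = 0.0061, edgeR) in Bap1flox and 3.04 (SE 0.53, adjusted p = 0.0018, edgeR) in Bap1LysM cells. Part of an exon is shared with the antisense gene Gm29292, and whether strand was used in counting is not stated, so reads there may have been lost or reassigned.

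Lif (ENSMUSG00000034394, plus strand of chromosome 11, 4257557 to 4272514) was at 1.44, 3.04 and 3.1 CPM in Bap1flox BMMs and 7.95, 12.3 and 9.92 CPM in preOCs 1 to 3. In Bap1LysM cells the levels were 0.671, 1.46 and 1.59 CPM in BMMs and 3.7 and 11.9 CPM in preOCs. Stages again did not overlap, as for 71.8% of all genes in Bap1flox and 54.9% in Bap1LysM cells. Log2 fold changes were 1.82 (SE 0.44, adjusted p = 0.0058, edgeR) and 2.52 (SE 0.49, adjusted p = 0.0033, edgeR) in the same order of genotypes.

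The remaining 4 genes were not called. Cthrc1 (ENSMUSG00000054196, chromosome 15, 39076932 to 39087121) was at 0.59, 1.62 and 1.4 CPM in Bap1flox BMMs and 3.06, 2.6 and 2.18 CPM in preOCs 1 to 3. In Bap1LysM cells it was at 0.537, 0.729 and 0.611 CPM in BMMs and 0.772 and 2.53 CPM in preOCs 1 and 2. Its stages did not overlap in either genotype, as for 71.8% of all genes tested in Bap1flox and 54.9% in Bap1LysM cells. Its log2 fold change was 0.95 (adjusted p = 0.084, edgeR) in Bap1flox and 1.26 (adjusted p = 0.069, edgeR) in Bap1LysM cells, and in the latter it was 1.78 (adjusted p = 0.024, edgeR) without the Bap1LysM libraries numbered 1, where preOC library 2 stands alone, and 0.27 (adjusted p = 0.73, edgeR) without that library. In Bap1flox cells the block on replicate number gave 1.01 (adjusted p = 0.075, edgeR), and 1.05 (adjusted p = 0.039, edgeR) where the number was shared by all groups. Of 23 alternatives, 6 called Cthrc1 in Bap1flox cells, among them voomWithQualityWeights at 0.63 (adjusted p = 0.014), which called 76.2% of all genes, and 5 called it in Bap1LysM cells, among them the edgeR fit of all 17 libraries at 1.62 (adjusted p = 0.01), which called 49.4%. Slit3 and Wnt10b had values near 0 or below, with log2 fold changes of -0.44 and -0.37 in Bap1flox and 0.17 and -0.27 in Bap1LysM cells and adjusted p of 0.48 to 0.86 from edgeR.

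Efnb2 (ENSMUSG00000001300, minus strand of chromosome 8, 8617434 to 8660773) was at 3.1, 7.89 and 8.52 CPM in Bap1flox BMMs and 5.61, 12.3 and 11.2 CPM in preOCs 1 to 3. In Bap1LysM cells it was at 1.9, 4.79 and 4.43 CPM in BMMs and 4.19 and 16.2 CPM in preOCs 1 and 2. Stages overlapped in both genotypes because the libraries numbered 1 were the lowest at each stage, yet every preOC library was above the BMM library of the same number. The log2 fold change was 0.40 (adjusted p = 0.54, edgeR) in Bap1flox and 1.33 (SE 0.59, adjusted p = 0.1, edgeR) in Bap1LysM cells. When the fit blocked on the replicate number, the Bap1LysM response was called, at 1.36 (SE 0.22, adjusted p = 0.0052, edgeR), in a fit that called 34.6% of all genes. The unblocked estimate was 0.16 (adjusted p = 0.88, edgeR) without Bap1LysM preOC library 2. Without the libraries numbered 1, where library 2 is the lone Bap1LysM preOC library and its spread is taken from the other groups, it was 1.68 (adjusted p = 0.00012, edgeR), with 53.3% of genes called. The Bap1flox response was 0.45 with the block (adjusted p = 0.059, edgeR) and was called at 0.45 (adjusted p = 0.041, edgeR) with the number shared by all groups, where 61.2% of genes were called, and at 0.34 (adjusted p = 0.039, edgeR) without the libraries numbered 1, where 63.7% were. It was 0.07 (adjusted p = 0.92, edgeR) without Bap1flox BMM 1.

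**Figure D2:**
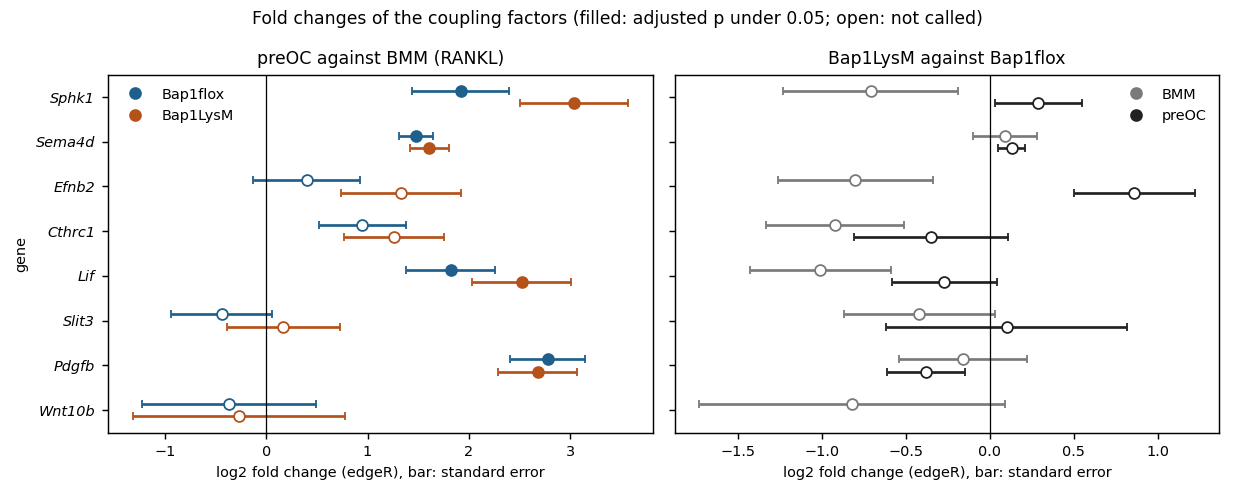
Log2 fold changes from edgeR with their standard errors for each gene, preOC against BMM in each genotype (left, libraries 1 to 3) and Bap1LysM against Bap1flox at each stage (right). Filled points passed an adjusted p of 0.05: Pdgfb, Sphk1, Lif and Sema4d for RANKL in both genotypes, and none for genotype.

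Promoter sequence is shown for 3 of the 4 genes that rose with RANKL and for Efnb2, from the RefSeq windows of GRCm38.p6 upstream of annotated starts. Windows were found for 6 of the 8 genes, Sphk1, Sema4d, Efnb2, Lif, Slit3 and Wnt10b. The letters TGANTCA (the AP-1 site bound by FOS and JUN), TGACGTCA (the cyclic AMP element), GGAAA (the NFAT core), TATAAA and CACGTG (the E-box) were searched on both strands of the 250 bases before each start, and may overlap one another. Capitals mark matches to the AP-1, TATA or E-box letters, and the stretches shown leave out annotated untranslated bases. They are Lif at chr11:4257318-4257556 (plus strand), Sema4d at chr13:51748811-51749060 (minus strand, a start inside the gene), Sphk1 at chr11:116532194-116532443 (plus strand, a start inside the gene) and Efnb2 at chr8:8661243-8661492 (minus strand).
Lif: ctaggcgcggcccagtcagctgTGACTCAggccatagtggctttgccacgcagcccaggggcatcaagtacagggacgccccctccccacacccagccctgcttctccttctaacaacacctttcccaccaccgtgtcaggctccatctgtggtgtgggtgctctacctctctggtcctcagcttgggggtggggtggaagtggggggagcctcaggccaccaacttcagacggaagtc
Sema4d: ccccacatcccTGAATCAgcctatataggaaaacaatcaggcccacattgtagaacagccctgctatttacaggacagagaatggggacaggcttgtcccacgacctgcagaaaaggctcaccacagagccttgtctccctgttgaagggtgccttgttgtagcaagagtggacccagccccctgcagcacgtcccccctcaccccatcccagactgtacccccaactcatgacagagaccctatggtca
Sphk1: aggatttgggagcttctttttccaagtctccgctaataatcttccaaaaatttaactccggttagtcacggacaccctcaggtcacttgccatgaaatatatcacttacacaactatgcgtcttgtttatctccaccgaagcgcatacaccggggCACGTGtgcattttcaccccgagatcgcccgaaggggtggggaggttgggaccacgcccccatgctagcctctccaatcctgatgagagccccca
Efnb2: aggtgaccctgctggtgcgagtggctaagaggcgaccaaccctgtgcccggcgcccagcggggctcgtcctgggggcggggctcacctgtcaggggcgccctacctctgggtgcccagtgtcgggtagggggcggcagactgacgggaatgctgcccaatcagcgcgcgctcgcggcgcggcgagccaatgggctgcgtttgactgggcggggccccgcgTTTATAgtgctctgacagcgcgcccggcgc

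A match to TGANTCA was present in the Lif window, beginning 228 bases before the start, and in the Sema4d window shown, beginning 239 bases before its start. It was also present in 2 overlapping windows of Sphk1, in annotated untranslated bases that are not shown. The same letters occurred in 6.75% of the 32851 windows in the table. The window of Efnb2 and a further window of Sphk1 that is not shown held TATAAA, found in 12.4% of windows, and the Sphk1 window shown held CACGTG, found in 6.02%. GGAAA, found in 55.6% of windows, was present in windows of Lif, Sphk1 and Sema4d and absent from those of Efnb2, Slit3 and Wnt10b. No window of a member held TGACGTCA, which occurred in 1.55%. Genes with several starts have more windows in which letters can occur, and a match does not show that a factor binds there.

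Whether the RANKL response itself differed between genotypes was tested as an interaction. None of the 8 genes passed, and neither did any of the 13635 genes in edgeR on libraries 1 to 3, although 1718 had an unadjusted p under 0.05. DESeq2 called 117 genes and voomWithQualityWeights 0. The edgeR fit of all 17 libraries with the library set as a term called 1443 of 13806 genes, none of them a member. Efnb2 was at 1.67 (adjusted p = 0.11, edgeR) in that fit and Sphk1 at 1.03 (adjusted p = 0.21, edgeR). In libraries 1 to 3 the difference in log2 fold change was 1.12 for Sphk1 (95% interval -0.25 to 2.49, and 0.43 without Bap1LysM preOC 2), 0.93 for Efnb2 (-0.64 to 2.5) and 0.70 for Lif (-0.58 to 1.99), where a positive value is a greater response in Bap1LysM cells. For Pdgfb it was -0.10 (-1.13 to 0.92) and for Sema4d 0.13 (-0.36 to 0.62). Without the libraries numbered 1, Efnb2 was called at 1.34 (SE 0.18, adjusted p = 0.041, edgeR), 1 of 95 genes called in that fit, or 0.704% of those tested. That fit rests on 2 Bap1flox libraries and 1 Bap1LysM library of preOCs, and the lone library is assumed to vary like the other groups. Leaving out the Bap1LysM libraries of that number only, Efnb2 was at 1.28 (adjusted p = 0.4, edgeR), and without Bap1LysM preOC 2 it was at -0.25 (adjusted p = 0.88, edgeR).

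The second question was whether BAP1 loss alters the factors in preOCs. None of the 7 genes tested was called, where 15.8% of all 12919 genes tested were. At an unadjusted p under 0.05 there was 1, Efnb2, with 30.4% of all genes. DESeq2, which called 22.5% of all genes, called 1, Sema4d, at a log2 fold change of 0.15 (adjusted p = 0.049). The voomWithQualityWeights method of limma, which called 54.9% of all genes, called 2, Efnb2 and Pdgfb. The ranges of the genotypes overlapped for all 8 genes, as they did for all but 10.3% of the genes tested.

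For Efnb2, the Bap1flox preOC libraries ranged from 3.72 to 12.3 CPM with a median of 7.47 CPM. The Bap1LysM libraries 1, 2, 4, 5 and 6 were at 4.19, 16.2, 17.5, 13.3 and 17 CPM. All of these except number 1, the library in which Lyz2 was retained, lay above every Bap1flox library. Library 1 was also the lowest preOC library in summed osteoclast markers, at 5917 CPM against 12771 to 17563 CPM in the rest of its group, and Bap1flox preOC 1 was the lowest of its own, at 7177 CPM. The part of these markers in the Efnb2 values was not tested. The means were 7.97 ± 3.32 (SD, n = 6) and 13.6 ± 5.52 CPM (SD, n = 5), with a log2 fold change of 0.86 (SE 0.36, adjusted p = 0.13, edgeR).

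The Efnb2 value depended on which libraries entered. Within libraries 4 to 6 the log2 fold change was 1.41 (SE 0.25, adjusted p = 0.0031, edgeR), in a fit that called 33.7% of genes, and within libraries 1 to 3 it was 0.12 (adjusted p = 0.93), in an edgeR fit that called no gene and had 2337 of 13120 at an unadjusted p under 0.05. Leaving out Bap1LysM preOC 1 gave 1.09 (SE 0.27, adjusted p = 0.015, edgeR), with 23.9% of genes called. Leaving out all libraries numbered 1 gave 1.00 (adjusted p = 0.032, edgeR), with 19.1% called. The neutrophil marker list, summed over its 7 genes, was also higher in Bap1LysM preOCs, at 110 to 332 CPM against 45 to 115 CPM, and was highest in the libraries numbered 4 and 6. The mitochondrial share of reads was higher in Bap1LysM than in Bap1flox preOCs in all 5 same-numbered pairs, at 1.02% to 1.07% against 0.481% to 1.02% in libraries 1 to 3 and 3.38% to 5.26% against 2.36% to 3.64% in libraries 4 to 6. The part of either in the Efnb2 difference, and of the mitochondrial share in that of Pdgfb described next, was not tested.

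Pdgfb went in the other direction. Bap1flox preOCs ranged from 122 to 265 CPM (median 220 CPM), and Bap1LysM preOCs were at 138, 264, 146, 118 and 107 CPM in libraries 1, 2, 4, 5 and 6. Library 2 was at 264 CPM in both genotypes, and the other 4 Bap1LysM libraries were below the Bap1flox libraries of their number. The means were 212 ± 55.2 (SD, n = 6) and 155 ± 63.1 CPM (SD, n = 5). The log2 fold change of -0.38 (SE 0.23, adjusted p = 0.28, edgeR) became -0.34 (SE 0.10, adjusted p = 0.035, edgeR) when numbers were blocked, where 32.8% of genes were called. It became -0.62 (adjusted p = 0.037, edgeR) without Bap1LysM library 2, where 21.6% were called, and -0.36 (adjusted p = 0.32, edgeR) without Bap1LysM library 1. Within libraries 4 to 6 it was -0.40 (adjusted p = 0.11) and within libraries 1 to 3 it was -0.27 (adjusted p = 0.56).

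**Figure D3:**
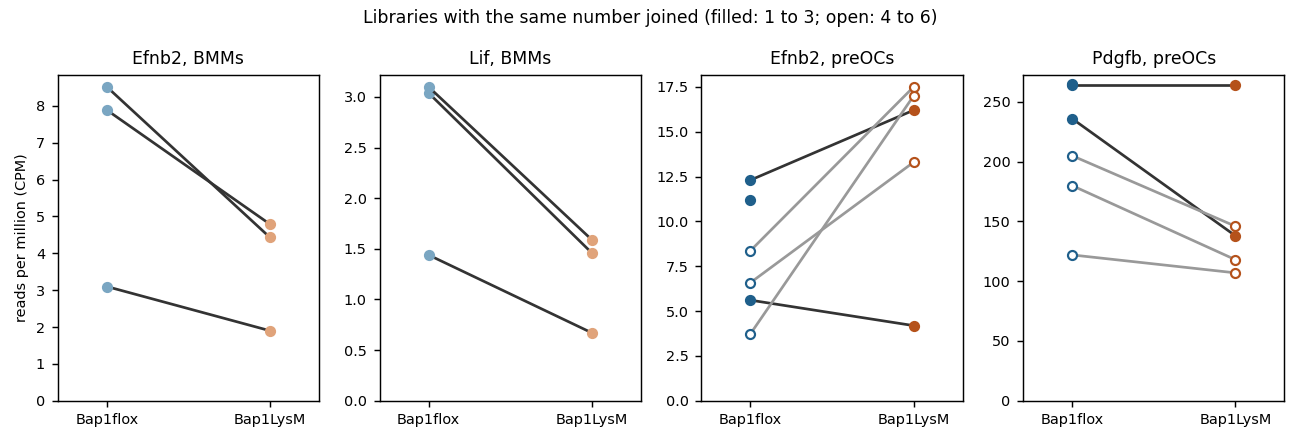
CPM of Efnb2 and Lif in BMMs and of Efnb2 and Pdgfb in preOCs, with Bap1flox and Bap1LysM libraries of the same number joined by lines. Efnb2 is lower in Bap1LysM in all 3 BMM pairs and higher in 4 of 5 preOC pairs.

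The other members gave smaller or less certain differences between preOC genotypes. Sema4d was at 787 ± 46.5 CPM in Bap1flox (SD, n = 6) and 815 ± 68 CPM in Bap1LysM (SD, n = 5), and its log2 fold change of 0.13 had a 95% interval of -0.02 to 0.28, the narrowest of the 7. The interval was -0.22 to 0.79 for Sphk1, -0.87 to 0.32 for Lif, -1.26 to 0.56 for Cthrc1 and -1.31 to 1.5 for Slit3. For Slit3, with an estimate of 0.10 (SE 0.72), the block on replicate number gave 0.48 (SE 0.22, adjusted p = 0.14, edgeR), with a higher level in Bap1LysM in 4 of 5 pairs. Wnt10b, at 0.132 to 0.97 CPM in Bap1flox and 0.0536 to 0.711 CPM in Bap1LysM, had a log2 fold change of -0.51 (SE 0.65, adjusted p = 0.67, edgeR) when the filter was lowered to 0.1 CPM.

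The third question concerned BMMs before RANKL. None of the 8 genes was called between genotypes, with 5.32% of 13028 genes called. At an unadjusted p under 0.05 there was 1, Lif, with 26.2% of all genes. DESeq2 and voomWithQualityWeights called none of the 8, with 15.9% and 13.6% of all genes called. The ranges of the genotypes overlapped for all 8, where 32.6% of genes did not overlap. In every same-numbered pair, Efnb2, Lif, Cthrc1, Slit3 and Wnt10b, 5 of the 8, were lower in Bap1LysM BMMs than in Bap1flox BMMs, as were 31.8% of all genes tested. The ratio of Bap1LysM to Bap1flox was 0.614, 0.607 and 0.52 for Efnb2 and 0.466, 0.48 and 0.511 for Lif in pairs 1, 2 and 3. Both genes were lower in library 1 than in libraries 2 and 3 of either genotype.

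With the replicate number as a block, where 16.2% of all genes were called, Efnb2 and Lif were the 2 members called. Efnb2 had a log2 fold change of -0.80 (SE 0.46, adjusted p = 0.3, edgeR) without the block and -0.78 (SE 0.15, adjusted p = 0.028, edgeR) with it. Lif had -1.01 (SE 0.42, adjusted p = 0.18, edgeR) and -1.02 (SE 0.20, adjusted p = 0.028, edgeR). Without the libraries numbered 1, which leaves 2 against 2, Sphk1 (-1.22), Efnb2 (-0.84), Cthrc1 (-1.18) and Lif (-1.01) were called at adjusted p of 0.029 to 0.05 by edgeR, with 10.5% of all genes called. For Sphk1 the estimate from all 6 libraries was -0.71 (adjusted p = 0.41, edgeR), and in the pair left out it was higher in Bap1LysM, at 1.14 against 0.572 CPM. Without Bap1LysM BMM 1 alone, Efnb2 was at -0.51 (adjusted p = 0.51, edgeR) and Lif at -0.74 (adjusted p = 0.3, edgeR), and neither was called. Leaving out single libraries gave -1.13 to -0.51 for Efnb2. Sema4d and Pdgfb, at 0.09 and -0.16 in the fit of all 6 libraries, were not called in any fit of the BMMs. The summed neutrophil markers were higher in Bap1LysM in all 3 BMM pairs, at 145, 145 and 195 CPM against 48.3, 111 and 148 CPM. Their part in the BMM differences was not tested.

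Markers of stromal cells and osteoblasts moved with several of these results. BMM cultures can retain marrow stromal cells, and 6 of the 10 stromal and osteoblast markers averaged above 1 CPM in both BMM groups and 7 in both preOC groups, led by the collagen genes Col1a1 and Col1a2, while the osteoblast gene Bglap was near 0 in all groups and Lum had no read in BMMs. The summed level was 496, 2335 and 2663 CPM in Bap1flox BMMs 1 to 3 and 348, 968 and 1227 CPM in Bap1LysM BMMs 1 to 3. It was thus lower in Bap1LysM BMMs in all 3 pairs and lowest in the library numbered 1 of each genotype, as were Efnb2 and Lif. In preOCs the sum was 387 to 2171 CPM in libraries 1 to 3 and 98.2 to 443 CPM in libraries 4 to 6.

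The likeness to the stromal sum differed among members. Across all 17 libraries, Pearson's r of log2 values was 0.89 for Slit3, 0.86 for Wnt10b and 0.67 for Cthrc1, against -0.37 for Sema4d and -0.20 for Pdgfb. Across the 6 BMM libraries r was 0.98 for Efnb2 and Slit3, 0.97 for Wnt10b, 0.94 for Lif, 0.89 for Cthrc1, 0.78 for Sphk1, -0.77 for Pdgfb and -0.85 for Sema4d. Across the 11 preOC libraries r was 0.93 for Cthrc1, 0.87 for Slit3, 0.83 for Wnt10b, 0.82 for Pdgfb and 0.78 for Lif. It was 0.60 for Sphk1, 0.41 for Sema4d and 0.22 for Efnb2. With the summed neutrophil markers, r in preOCs was 0.69 for Efnb2 and -0.57 to 0.08 for the other members. These are descriptions over libraries that share culture, genotype and library set. The stromal sum was lower in Bap1LysM in 3 of the 5 preOC pairs. The part of stromal RNA in the BMM differences of Efnb2, Lif, Cthrc1, Slit3 and Wnt10b, and in the preOC difference of Pdgfb, was not tested. For Bap1flox number 1 the stromal sum was higher in the preOC than in the BMM library, and for numbers 2 and 3 lower. The largest factor was 2.57. In Bap1LysM cells the sum was higher in preOCs in both same-numbered pairs. Pdgfb, Sphk1, Lif and Sema4d were higher in preOCs in all 5 of these pairs. The part of stromal RNA in the RANKL responses was not tested.

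**Figure D4:**
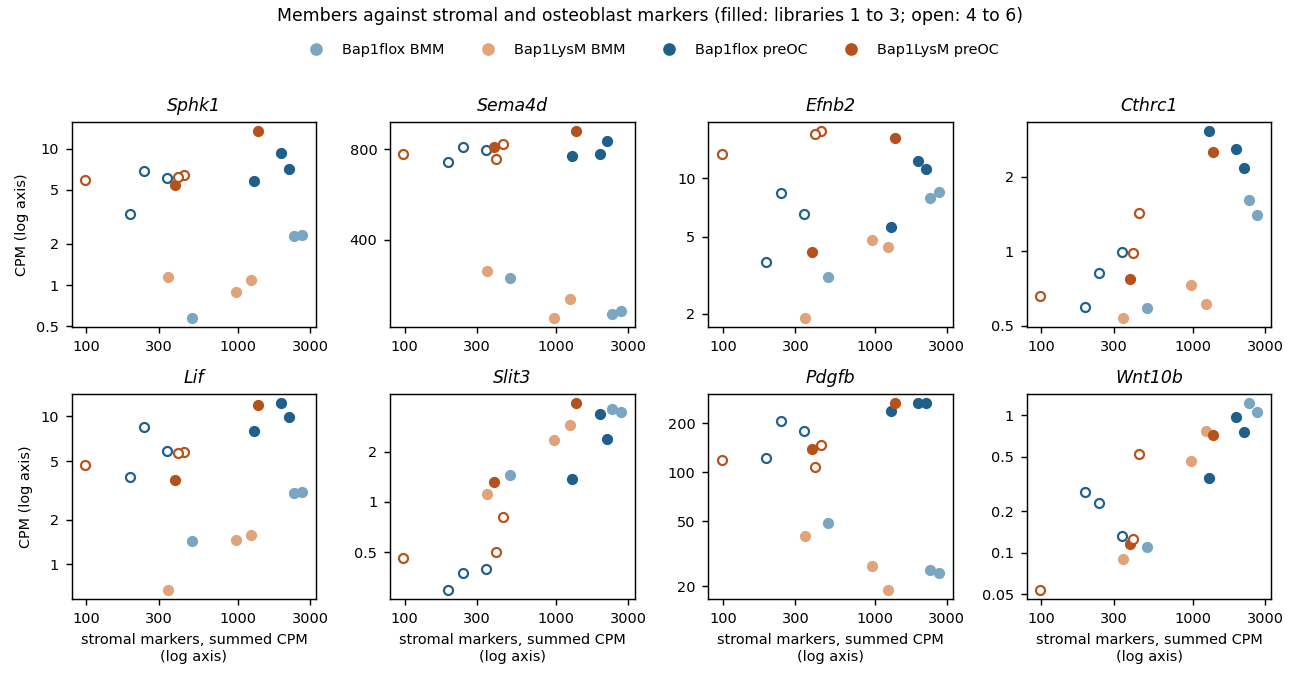
CPM of each coupling factor against the summed CPM of 10 stromal and osteoblast markers in the same library, both on log axes; filled points are libraries 1 to 3 and open points libraries 4 to 6. Slit3 and Wnt10b follow a single band over all groups. Sema4d, Pdgfb, Sphk1 and Lif are higher in every preOC library than in every BMM library.

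The genes whose levels were most like each member over the 17 libraries, by Pearson's r of log2 CPM among 13376 genes, also differed. Sema4d was followed by A330074K22Rik (0.995), Tm4sf19 (0.989) and Lat (0.988), and Pdgfb by Itgb7 (0.980), Bri3bp (0.975) and Gtf2h3 (0.974). Sphk1 was most like Actn1 (0.970), Gfod1 (0.969) and Phldb1 (0.963), and Lif most like Sema7a (0.965), Ss18l2 (0.961) and Sdhaf1 (0.957). Efnb2 was most like Socs2 (0.939), and Plekhg5 was at 0.920. Slit3 stood with Svep1 (0.973), Vasn (0.965) and Scarf2 (0.963), and Cthrc1 had the weakest company, Runx3 (0.849) and Zfp428 (0.834). Wnt10b was too low for this comparison. Among the members, Sema4d and Pdgfb were the most alike (r = 0.94), followed by Sphk1 and Lif (r = 0.92).

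The pathway partners of these factors showed where the rest of each signalling system stood in the same cells. Of 12 genes of sphingosine-1-phosphate metabolism and its receptors, 9 were tested for RANKL in Bap1flox cells, and 2 were higher and 4 lower, or 6 of 9 where 58.1% of all genes were called. Spns2, the exporter of sphingosine-1-phosphate, rose from 0.492 ± 0.122 CPM in Bap1flox BMMs (SD, n = 3) to 49.2 ± 12.2 CPM in preOCs (SD, n = 6), a log2 fold change of 6.50 in libraries 1 to 3 (adjusted p = 6.8e-06, edgeR). The receptor S1pr1 fell by 2.46 and the degrading lyase Sgpl1 by 0.82 on the log2 scale. Between preOC genotypes 1 of 9 was called, where 15.8% of all genes were. It was Sgpl1, higher in Bap1LysM at 0.37 (adjusted p = 0.023, edgeR). Without Bap1LysM preOC 1, where 23.9% of all genes were called, 1 of the 9 was higher and 1 lower. In BMMs 1 of 8 was called, where 5.32% of all genes were. It was S1pr1, lower in Bap1LysM at -0.61 (adjusted p = 0.02, edgeR).

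Of 15 semaphorins, plexins and partners, 3 were higher and 7 lower after RANKL in Bap1flox cells, and 5 and 3 in Bap1LysM cells (4 and 4 without the Bap1LysM libraries numbered 1), where 58.1% and 38.9% of all genes were called. The coreceptor Nrp2 rose by 2.13 on the log2 scale and Nrp1 fell by 2.63 in Bap1flox cells. Between preOC genotypes 4 of 15 were higher in Bap1LysM and none lower, where 15.8% of all genes were called (4 and 1 without Bap1LysM preOC 1, where 23.9% were), among them the plexin Plxnb2 (0.49, adjusted p = 0.0027, edgeR) and Sema6d (1.35, adjusted p = 0.022, edgeR). Plxnb1, named here as the receptor of Sema4d, had mean levels of 0.498 to 3.99 CPM in the 4 groups. Of 10 ephrins and Eph receptors, 9 were tested for RANKL. In Bap1flox cells 1 was higher and 1 lower, where 58.1% of all genes were called. Efna2 rose (3.52, adjusted p = 0.00023, edgeR) and Ephb6 fell (-1.81, adjusted p = 0.00023, edgeR). For genotype 0 of 7 were called in preOCs and 0 of 8 in BMMs, where 15.8% and 5.32% of all genes were. Without Bap1LysM preOC 1 it was 1 of 7 in preOCs, higher in Bap1LysM, where 23.9% of all genes were called. Ephb4, the partner of Efnb2, averaged 0.826 to 4.74 CPM.

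Among 9 Slit, Robo and Srgap genes, 7 were tested for RANKL. In Bap1flox cells 1 was higher and 3 lower, where 58.1% of all genes were called. Slit1 fell from 21 ± 2.98 CPM in Bap1flox BMMs to 0.544 ± 0.212 CPM in preOCs (log2 fold change -5.46, adjusted p = 6.8e-06, edgeR) and Srgap3, an effector of Robo signalling, rose (3.41, adjusted p = 0.00012, edgeR). Between preOC genotypes 2 of 6 were higher in Bap1LysM and 0 lower, where 15.8% of all genes were called (3 of 5 higher without Bap1LysM preOC 1, where 23.9% were). These were Srgap2 (0.77, adjusted p = 0.00096, edgeR) and Slit1 (1.38, adjusted p = 0.02, edgeR). In BMMs 1 of 7 was called, where 5.32% of all genes were. It was Srgap2, higher in Bap1LysM at 0.52 (adjusted p = 0.038, edgeR). In the PDGF list Pdgfa, like Pdgfb, rose with RANKL in Bap1flox cells (1.97, adjusted p = 3.9e-05, edgeR) and Pdgfc fell (-1.74, adjusted p = 0.00094, edgeR), with no gene of 4 tested called for genotype, where 15.8% of all genes were called in preOCs and 5.32% in BMMs.

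Of 15 Wnt ligands, receptors and secretion genes, 8 passed the filter for RANKL, and 4 were lower and none higher in each genotype (3 lower in Bap1LysM without its libraries numbered 1), where 58.1% and 38.9% of all genes were called. Lrp6 and Lrp5, the coreceptors, fell by 1.83 and 1.09 on the log2 scale in Bap1flox cells. In preOCs 3 of 7 were higher and 2 lower in Bap1LysM, where 15.8% of all genes were called (2 and 2 without Bap1LysM preOC 1, where 23.9% were). Porcn, the acyltransferase needed for Wnt secretion, was lower in Bap1LysM preOCs (-1.60, adjusted p = 0.005, edgeR) and BMMs (-1.41, adjusted p = 0.016, edgeR), Wnt6 was lower in preOCs (-1.56, adjusted p = 0.017, edgeR), and Lrp6 was higher (0.74, adjusted p = 0.018, edgeR). In the IL-6 family, 5 of 7 genes tested fell with RANKL in Bap1flox cells and 1 rose, against 58.1% of all genes called. Lifr, the receptor subunit for LIF, fell from 37.6 ± 0.979 CPM in BMMs (SD, n = 3) to 4.33 ± 1.27 CPM in preOCs (SD, n = 6), a log2 fold change of -3.01 in libraries 1 to 3 (adjusted p = 1.4e-05, edgeR). It was lower in Bap1LysM BMMs at -0.83 (adjusted p = 0.046, edgeR).

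Of 12 other osteoclast-derived factors, 10 were tested in preOCs, and 2 were higher and 1 lower in Bap1LysM, again against 15.8%. Complement C3, which osteoclasts secrete, was at 513 ± 109 CPM in Bap1flox (SD, n = 6) and 1408 ± 712 CPM in Bap1LysM preOCs (SD, n = 5), a log2 fold change of 1.55 (adjusted p = 0.004, edgeR). The chemokine Ccl9 was lower (-0.49, adjusted p = 0.04, edgeR) and Tnfrsf11a, the receptor RANK, was higher (0.33, adjusted p = 0.013, edgeR). The median log2 fold change of these 10 was 0.19, against -0.01 over all genes. No gene in any of these 8 partner lists passed the interaction test in libraries 1 to 3. Without Bap1LysM preOC 1, Slit1 was no longer tested. The other partners named above between preOC genotypes kept their direction and call, except Ccl9 (-0.43, adjusted p = 0.054, edgeR). C3 was then at 1.18, Porcn at -1.82, Srgap2 at 0.70, Plxnb2 at 0.49, Sema6d at 1.56, Wnt6 at -1.86, Lrp6 at 0.81, Sgpl1 at 0.36 and Tnfrsf11a at 0.34. Without Bap1LysM BMM 1, where 2.84% of all genes were called, S1pr1 (-0.67), Porcn (-1.50) and Lifr (-0.65) stayed called in BMMs and Srgap2 (0.44, adjusted p = 0.061, edgeR) did not.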

How the data were processed

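RNA-seq counts of 17 libraries were analysed. The reads were aligned with STAR 2.5.1a and counted per gene with featureCounts 1.4.6-p5, as unique and unambiguous alignments, against Ensembl gene models of GRCm38, and the authors deposited these counts without normalization. The deposited CPM and RPKM values equalled the count over the library total, and that over gene length, within 5.1e-11, and were used as levels only. Here, 355 ribosomal RNA genes were left out.

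Groups were compared with edgeR 4.0.16 (R 4.3.3), using TMM factors, the quasi-likelihood test and Benjamini-Hochberg adjustment over all genes tested at a threshold of 0.05. A gene was tested where its CPM exceeded 1 in 4 or more of the 11 preOC libraries, in 2 or more of the 6 BMM libraries, or in 2 or more libraries for RANKL. The RANKL responses and their interaction were fitted on libraries 1 to 3. The members, partner lists, marker lists and motifs were chosen with earlier results of these data known. Named are the members, up to 3 called genes with the smallest adjusted p per list and comparison, and the 3 genes most like each member, of which some are not reported here. Plxnb1 and Ephb4 were named outside this rule. Intervals (95%) come from the standard error and a normal approximation.

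Same-numbered libraries deviated together from their group means, with correlations of 0.37 to 0.72 in preOCs, 0.36 to 0.54 in BMMs and 0.23 to 0.5 between stages, a difference between library sets included, so the replicate number was also fitted as a block. Other alternatives were DESeq2 1.42.0, voomWithQualityWeights of limma 3.58.1, RLE and upper-quartile factors, other filters, the library set as a term, each set alone, all libraries in 1 fit and each library left out. The fits were tested on simulated data. The labels do not say that BMM libraries came from separate mice, and p-values there measure only the spread between these libraries. Totals ranged from 37967542 to 61369441 counts, so that the spread between libraries and, below about 1 CPM, counting error limit precision.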

Additional observations from a re-analysis of the deposited data

Results flagged for a closer look

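Bap1LysM preOC library 2 stood apart from the other 4 libraries of its group for 4 members. It was the highest for Sphk1 at 13.4 CPM, for Lif at 11.9 CPM, for Slit3 at 3.9 CPM and for Pdgfb at 264 CPM. The gap to the next library was 0.879, 0.744, 0.754 and 0.752 of the range of the group, above Dixon's 95% critical value. Of 16 groups examined, 4 were marked in this way. The 16 are the members taken in the same preOC libraries and are not independent. The rate of about 1 in 20 that chance gives can therefore not be set against the 4. All 4 come from the same library, which also had the highest summed stromal and osteoblast markers of its group, at 1360 CPM against 98.2 to 443 CPM in the other 4, and the highest summed osteoclast markers, at 17563 CPM against 5917 to 13339 CPM. Whether these move together for a common reason was not tested.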

How the results depend on the processing

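The RANKL responses of Pdgfb, Sphk1, Lif and Sema4d kept their direction and call in all 184 alternative values computed for them. Of 845 alternative values for single members, 766 kept their direction and side of the threshold, 40 gained a call, none lost one and 39 changed sign, each of these for a member that was not called. The number of members called in preOCs was 0 in the fit reported, 1 with DESeq2 (Sema4d), 2 with voomWithQualityWeights (Efnb2 and Pdgfb), 1 with the replicate block (Pdgfb, also at a filter of 0.1 CPM), 1 in libraries 4 to 6 alone (Efnb2, also at 0.1 CPM) and 1 without the libraries numbered 1 (Efnb2). It was 0 to 1 with single libraries left out. In BMMs it was 0 in the fit reported, 2 with the replicate block (Efnb2 and Lif, also at 0.1 CPM) and 4 without the libraries numbered 1. In the interaction it was 1 (Efnb2) without the libraries numbered 1. For RANKL it was 4 to 6 in each genotype, the additions being Cthrc1 and Efnb2: in Bap1LysM cells both were called with all 17 libraries (Efnb2 at 1.81, adjusted p = 0.013, edgeR) and without Bap1LysM preOC 1 (1.97 for Efnb2 and 1.85 for Cthrc1). The block changed no other call of a member except Efnb2 in the RANKL response of Bap1LysM cells and, where the number was shared by all groups, Efnb2 and Cthrc1 in Bap1flox cells. It raised the number of all genes called from 2040 to 4233 in preOCs and from 693 to 2107 in BMMs.

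Signs changed as follows, on the log2 scale. In preOCs Cthrc1 was 0.02 without the libraries numbered 1 and 0.40 in libraries 4 to 6 at 0.1 CPM, where Wnt10b was 0.20, and Slit3 was -0.49 with voomWithQualityWeights and -0.67 to 0.58 with single libraries left out. In BMMs Pdgfb was 0.06 with voomWithQualityWeights and -0.54 to 0.25 with single libraries left out, and Sema4d -0.10 to 0.23. In the RANKL response of Bap1LysM cells Slit3 was -0.03 with voomWithQualityWeights and -0.71 to 0.73 with single libraries left out. Wnt10b there was 0.44 with the replicate block, 0.08 with the number shared by all groups (0.06 at 0.1 CPM), 0.05 with all 17 libraries, 0.06 without the libraries or the Bap1LysM libraries numbered 1, and -1.94 to 0.52 with single libraries left out. In the interaction Pdgfb was 0.17 without the libraries numbered 1 and 0.63 without the Bap1LysM ones, and Wnt10b was -0.02 with voomWithQualityWeights. With single libraries left out the interaction ranged from 0.43 to 1.59 for Sphk1, -0.02 to 0.32 for Sema4d, -0.25 to 1.57 for Efnb2, -0.68 to 0.90 for Cthrc1, -0.27 to 1.28 for Lif, -0.27 to 1.16 for Slit3, -0.56 to 0.28 for Pdgfb and -1.57 to 0.89 for Wnt10b. The cause of these changes was not tested. The alternatives without the libraries or the Bap1LysM libraries numbered 1, with the number shared by all groups, and at 0.1 CPM within a set or with a block were chosen after seeing the data. Reads were few for Wnt10b, Slit3 and Cthrc1, with as few as 3, 14 and 24 in a library.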
